A study of Mus musculus with 4 samples.

Results

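The genes described here carry sodium and calcium across the plasma membrane of heart cells. They were 5 named genes, taken by symbol from the 23337 genes in the tables of 4 heart RNA-seq libraries: *Slc8a1*, *Atp2b1*, *Atp2b4*, *Atp1b1* and *Fxyd1*. All 5 were present with at least 936 reads in every library and none was lost to a filter on low values. The control groups were PIMT fl/fl mice at 2 and at 6 months of age, whose *Tgs1* gene, for PIMT, has exons 3 and 4 between loxP sites. The csPIMT-/- groups, of the same ages, carried the same floxed alleles and in addition the α-MyHC-Cre transgene, which is driven by the promoter of the cardiac α-myosin heavy chain and removes those exons in cardiomyocytes, while the other cells of the heart keep the gene. All mice were labelled C57BL6/J. RNA of 5 hearts, of male and female mice, was pooled for each group and gave 1 library, so there was no replicate library in any group and the spread between mice was not measured.

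Calcium enters a cardiomyocyte with each beat and has to leave it again. Most of it leaves through the sodium-calcium exchanger NCX1, which is encoded by *Slc8a1* and uses the inward gradient of sodium, and a smaller part through the calcium ATPases of the plasma membrane, PMCA1 (*Atp2b1*) and PMCA4 (*Atp2b4*), which are activated by calmodulin. The sodium gradient itself is built by the sodium pump, a complex of a catalytic α subunit and a β subunit (β1 is *Atp1b1*), which in heart is held in check by phospholemman (*Fxyd1*), a small membrane protein of the FXYD family.

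*Atp2b1* was the member with the lowest ratio and *Fxyd1* the one with the highest, and sequences of these genes are shown for that reason. A pair of RT-qPCR primers for *Atp2b1* is listed with the study. Matched to GENCODE M21, they fall in exons 7 and 8 of the 21 exons of its 7130-base transcript. The product is 153 bases of coding sequence, bases 1382 to 1534 of the transcript, at chr10:98993877-98994769 on the plus strand (GRCm38). Both primers are given 5′ to 3′.
Atp2b1 forward: agatggagctattgagaatcgca
Atp2b1 reverse: ccctgtaacacggatttttcctt

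The 250 bases before a RefSeq start of each gene (GRCm38.p6) are given next, 5′ to 3′ on the strand of the gene, with capitals on each GC box (GGGCGG on either strand). The window of *Atp2b1*, which is before the second of its listed starts, is at chr10:98914902-98915151 on the plus strand, and that of *Fxyd1* at chr7:31054854-31055103 on the minus strand. Both lie inside the span of the gene and overlap no GENCODE exon.
Atp2b1: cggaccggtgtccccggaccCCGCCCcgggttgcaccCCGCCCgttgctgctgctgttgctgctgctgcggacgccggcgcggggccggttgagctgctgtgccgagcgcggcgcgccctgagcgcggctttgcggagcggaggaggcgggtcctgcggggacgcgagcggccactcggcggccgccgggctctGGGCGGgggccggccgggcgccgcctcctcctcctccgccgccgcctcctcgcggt
Fxyd1: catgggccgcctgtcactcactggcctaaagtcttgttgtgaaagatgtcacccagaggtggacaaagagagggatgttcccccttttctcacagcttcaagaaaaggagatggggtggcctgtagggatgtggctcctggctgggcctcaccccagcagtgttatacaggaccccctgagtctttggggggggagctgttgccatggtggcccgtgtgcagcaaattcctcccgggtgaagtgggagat

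The window of *Atp2b1* was 80.8% G and C, held 41 CpG and had 3 GC boxes. That of *Fxyd1* was 57.2% G and C, held 3 CpG and had none. The median of 32851 windows of RefSeq was 6 CpG, and 32.7% of them held a GC box. A CCAAT box (CCAAT, either strand) was in neither window and in 33.8% of all, and TATAAA was in neither and in 12.4%. The window of *Slc8a1* held none of these letters, and that of *Atp1b1* held 2 GC boxes and 1 CCAAT box. AGGTCA, the core of many nuclear receptor sites, was in the window of no member and in 14% of all windows. A match is a run of letters and not a shown site, and no match says only that the letters are not in the window. The transcripts ran the other way from the windows. *Atp2b1* RNA is 42.6% G and C over its longest transcript. The longest of the 17 listed transcripts of *Fxyd1*, of only 668 bases and 3 exons, is 58.1%.

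At each age 1 of 5 members, *Atp2b1*, stood below 0.5 in the csPIMT-/- library relative to its control, beside 23% of all genes at 2 months and 25.7% at 6 months. 1 of 5, *Fxyd1*, had a ratio above 2, beside 16.4% and 16%. Of all genes compared at both ages, 16.6% were below 0.5 at both and 7.12% above 2 at both. In limma, over both ages, 1 of 5 was lower and 1 of 5 higher, beside 18% and 12.2% of the 14935 genes tested. edgeR and DESeq2 on the same reads also had 1 member lower and 1 higher, beside 16.8% and 10.8% of genes for edgeR and 20% and 14.7% for DESeq2. With a trend of the ratios on the G and C content of transcripts subtracted, 0 of 5 were below 0.5 at either age, beside 11.4% and 13.1% of genes, and 1 of 5 (*Slc8a1*) was above 2 at 2 months and 0 of 5 at 6 months, beside 15% and 14.2%. With 5 members these shares are near those of all genes. The members had median ratios of 0.864 and 0.792, or -0.21 and -0.34 on the log2 scale. The median log2 ratio of all genes was -0.03 at both ages. Between the ages the log2 ratios differed by -0.39 (-0.41 to -0.36, 6 minus 2 months) for *Slc8a1*, -0.22 (-0.35 to -0.08) for *Atp2b1*, 0.20 (0.09 to 0.30) for *Atp2b4*, 0.50 (0.43 to 0.56) for *Atp1b1* and 0.02 (-0.04 to 0.09) for *Fxyd1*. These intervals hold counting error only and not the spread between pools of mice, so they test no change with age.

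The libraries held 39854713 and 40705783 reads on genes in the controls of 2 and 6 months, and 29823073 and 36172093 in csPIMT-/-. The targeted gene, *Tgs1*, had 580 and 816 normalized counts in the controls and 160 and 162 in csPIMT-/- hearts, a ratio of 0.271 (95% interval of counting error 0.223 to 0.327) at 2 months and 0.194 (0.162 to 0.23) at 6 months. With the trend on G and C content subtracted, the ratios of *Tgs1* were 0.599 and 0.493. Normalized counts are reads divided by a library's size factor, on the scale of the authors. The libraries differed in the tissue they held. The 10 cardiomyocyte markers were high in all 4, with a sum of 2125711 to 3981885 normalized counts and none at 0. The 7 atrial markers summed to 42645 in the 2-month control and to between 129607 and 355328 in the others. *Nppa*, which is also a marker of heart failure, made up much of these sums. The other 6 summed to 4463 and 58948 in the controls of 2 and 6 months and to 147509 and 35032 in csPIMT-/-, and at 6 months 4 of the 7 had a ratio below 0.5 and 1 above 2. *Bmp10*, made by atrial cardiomyocytes, had 5.19 normalized counts in the 2-month control against 6296 in the 6-month control, and 8564 and 1079 in csPIMT-/- hearts of 2 and 6 months. The 2-month csPIMT-/- library held lung genes (a sum of 1169 normalized counts over 6 genes against at most 18.7 in the others, with *Bpifa1* at 979 and 5 of 6 at 0 in the 2-month control) and *Ucp1* of brown fat at 1766 (8.65 to 93.2 in the others). Of the 5 brown fat markers 3 had a ratio above 2 at 2 months and 1, *Fabp4*, was below 0.5 (0.307). The 5 summed to 10967 in 2-month csPIMT-/-, against 12202 and 11840 in the controls of 2 and 6 months. Ratios at 2 months rest on the 2-month csPIMT-/- library and the 2-month control, and those at 6 months on neither. In whole hearts, fewer cells of a type and less RNA per cell cannot be told apart.

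Ratios also followed base composition. Over 13748 and 13787 genes the log2 ratio of csPIMT-/- over control was higher for transcripts richer in G and C, and the Spearman correlation was 0.581 at 2 months and 0.607 at 6 months, against -0.261 between the controls of 6 and 2 months. It is a description across genes, which share the libraries. The plot of ratio against GC content places the members on this trend, and the distance from it is given for each of them. The source of the trend was not tested.

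**Figure D1:**
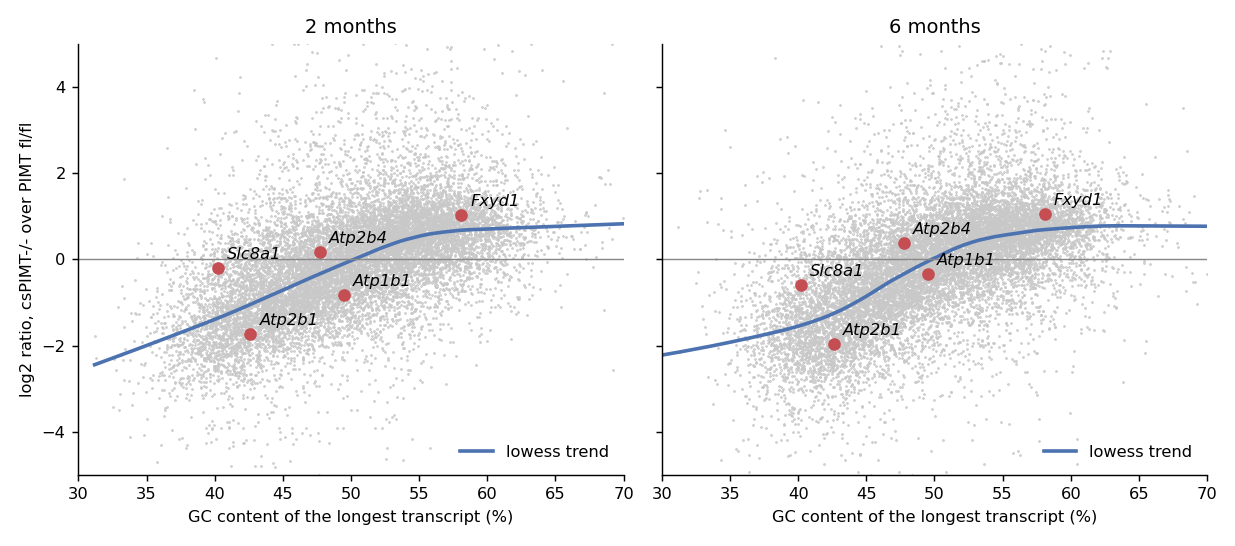
Log2 ratio of csPIMT-/- over PIMT fl/fl (vertical axis) against the GC content of the longest transcript in percent (horizontal axis), at 2 months (left) and 6 months (right). Each grey point is 1 gene, the blue line is a lowess trend, and the members are red and named. Slc8a1 lies above the line at both ages, Atp2b1 lies below it, and Fxyd1 lies a little above its high-GC end.

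*Slc8a1* encodes NCX1, the main route of calcium out of the cardiomyocyte, and lies at chr17:81373105-81738377 on the minus strand (GRCm38). It had 46536 and 51183 normalized counts in the controls of 2 and 6 months and 41004 and 34722 in csPIMT-/- hearts. Both csPIMT-/- libraries were below both controls, and the 6-month csPIMT-/- library was the lowest. The ratio was 0.864 (0.852 to 0.876) at 2 months and 0.661 (0.652 to 0.67) at 6 months, neither past 2-fold. The controls differed by a ratio of 1.05 (1.04 to 1.06, 6 over 2 months) and the csPIMT-/- libraries by 0.823 (0.811 to 0.836). Over both ages, limma gave a log2 difference of -0.36 (SE 0.27, adjusted p = 0.342), which did not pass. Its transcript is among the poorest in G and C (40.2%, the 11.7th percentile of the genes), and the trend at that value was -1.36 and -1.53. With the trend subtracted the ratios of *Slc8a1* turned to 2.22 and 1.91, so the direction for this gene depends on that step. 2 genes on the other strand, *Gm11096* and an antisense RNA, overlap it. Whether the counting used the strand is not given in the sources used here, so reads from the strands may be mixed.

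*Atp2b1* encodes PMCA1, the calcium pump of the plasma membrane that is found in most cell types, and lies at chr10:98914406-99026143 on the plus strand. It had 3769 and 4959 normalized counts in the controls of 2 and 6 months, and 1154 and 1313 in csPIMT-/- hearts. Every control library was above every csPIMT-/- library. The ratio was 0.3 (0.279 to 0.322) at 2 months and 0.258 (0.242 to 0.274) at 6 months. Only 9.4% of genes had a lower ratio at 2 months and 9.71% at 6 months. Against the control of the other age it was 0.225 (2-month csPIMT-/-) and 0.341 (6-month csPIMT-/-). The controls differed by 1.26 (1.21 to 1.31). *Atp2b1* fell by 1.80 on the log2 scale over both ages (SE 0.21, limma, adjusted p = 0.0117). It stayed past 0.05 in 10 of 13 alternative fits (adjusted p from 2.23e-07 to 0.139), and without the 2-month control its difference was -2.01 (limma, adjusted p = 0.0313), without the 2-month csPIMT-/- library -1.78 (limma, adjusted p = 0.0161). The call was lost without the 6-month control (-1.62, limma, adjusted p = 0.0519) and without the mean trend of the variance (limma, adjusted p = 0.0669). The trend on GC content at *Atp2b1* was -1.05 and -1.25, and with it subtracted the ratios were 0.62 and 0.615, still below 1 but no longer below 0.5, and the limma difference was -0.68 (adjusted p = 0.139).

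*Atp2b4* encodes PMCA4, the second plasma membrane calcium pump of the heart, and lies at chr1:133699457-133801041 on the minus strand. It had 2316 and 2536 normalized counts in the controls and 2666 and 3363 in csPIMT-/- hearts. The controls were the lower libraries and 6-month csPIMT-/- the highest. The ratio was 1.13 (1.07 to 1.19) at 2 months and 1.29 (1.23 to 1.36) at 6 months. The controls differed by 1.05 (0.992 to 1.1), an interval that holds 1, and 2-month csPIMT-/- over the 6-month control was 1.02 (0.961 to 1.08), so these neighbours did not differ beyond counting error. The limma difference was 0.31 (SE 0.21, adjusted p = 0.285) and did not pass. The trend at its GC content (47.8%) was -0.33 and -0.34, beside log2 ratios of the gene of 0.17 and 0.37, and with it subtracted the ratios were 1.42 and 1.63.

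*Atp2b1* and *Atp2b4* stood in a different proportion in csPIMT-/- and control hearts. As RPKM, which is reads scaled to the length of the longest transcript and to the depth of the library, *Atp2b1* had a level of 15.3 and 19.4 in the controls and 4.4 and 4.89 in csPIMT-/-, and *Atp2b4* 5.73 and 6.04 in the controls and 6.18 and 7.62 in csPIMT-/-. Within a library, the level of *Atp2b1* over that of *Atp2b4* was 2.68 (2.55 to 2.81) and 3.22 (3.07 to 3.37) in the controls, and 0.712 (0.659 to 0.769) and 0.642 (0.601 to 0.685) in csPIMT-/-. So *Atp2b1* was the pump with more RNA per length in both controls and *Atp2b4* in both csPIMT-/- libraries. Summed, their level was 21.1 and 25.5 in the controls and 10.6 and 12.5 in csPIMT-/-, which is a sum of RNA and not of pumps at the membrane. The level of *Slc8a1* over the pumps was 3.47 and 3.04 in controls and 5.71 and 3.99 in csPIMT-/-. A ratio within a library does not depend on scaling between libraries but still holds the trend on GC content. With that trend subtracted from both genes, a step added after seeing the data, *Atp2b1* over *Atp2b4* in csPIMT-/- was 1.17 at 2 months and 1.21 at 6 months, below the controls but again above 1, so the exchange of rank depends on that step.

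**Figure D2:**
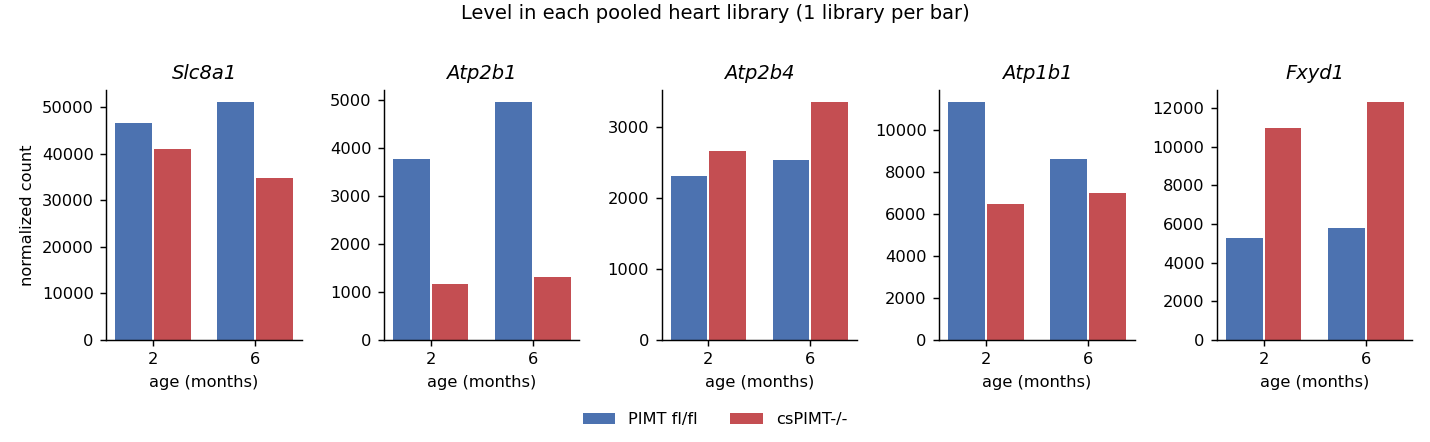
Normalized count (vertical axis, starting at 0, its own scale for each gene) in each library by age in months, in PIMT fl/fl (blue) and csPIMT-/- (red) hearts, 1 bar per pooled library with no error bar because there is 1 library per group. In Atp2b1 the red bars are far below the blue ones at both ages, and in Fxyd1 far above.

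*Atp1b1* encodes the β1 subunit of the sodium pump, which carries the α subunit to the membrane, and lies at chr1:164437109-164458355 on the minus strand. It had 11318 and 8601 normalized counts in the controls of 2 and 6 months, and 6475 and 6989 in csPIMT-/- hearts. The csPIMT-/- libraries were both below both controls, and the controls were farther apart than the csPIMT-/- libraries. The ratio was 0.561 (0.543 to 0.579) at 2 months and 0.792 (0.767 to 0.817) at 6 months. The controls differed by 0.726 (0.707 to 0.745, 6 over 2 months), so the lower ratio, at 2 months, was taken against the higher control. The csPIMT-/- libraries differed by only 1.05 (1.01 to 1.09). The limma difference was -0.54 (SE 0.23, adjusted p = 0.121) and did not pass. The trend on GC content was near 0 at this gene (49.5%, -0.10 and -0.05), and the ratios without it were 0.599 and 0.819. *Nme7*, on the other strand, overlaps *Atp1b1* and had ratios of 0.732 and 0.505.

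*Atp1b3*, a second β subunit, had 1829 and 2347 normalized counts in the controls and 2095 and 1219 in csPIMT-/-.

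*Fxyd1* encodes phospholemman, a target of protein kinases A and C that inhibits the sodium pump until it is phosphorylated, and lies at chr7:31051678-31057199 on the minus strand. It had 5258 and 5781 normalized counts in the controls and 10972 and 12339 in csPIMT-/- hearts. The csPIMT-/- libraries were both above both controls. The ratio was 2.05 (1.98 to 2.11) at 2 months and 2.08 (2.02 to 2.14) at 6 months, the nearest to equal at the 2 ages of any member, and against the control of the other age it was 1.84 and 2.3. It was above 84.5% of genes at 2 months and above 85.5% at 6 months. *Fxyd1* rose by 1.09 on the log2 scale over both ages (SE 0.20, limma, adjusted p = 0.0193). It stayed past 0.05 in 9 of 13 alternative fits (adjusted p from 0.00147 to 0.286). The call was lost without the mean trend of the variance (limma, adjusted p = 0.0835), without the 2-month control (1.01, limma, adjusted p = 0.0864) and without the 6-month control (1.14, limma, adjusted p = 0.0755). The GC content of its longest transcript is high (58.1%, the 91.6th percentile), the trend there was 0.68 and 0.69, and with it subtracted the ratios were 1.28 and 1.29, with a limma difference of 0.36 (adjusted p = 0.286).

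**Figure D3:**
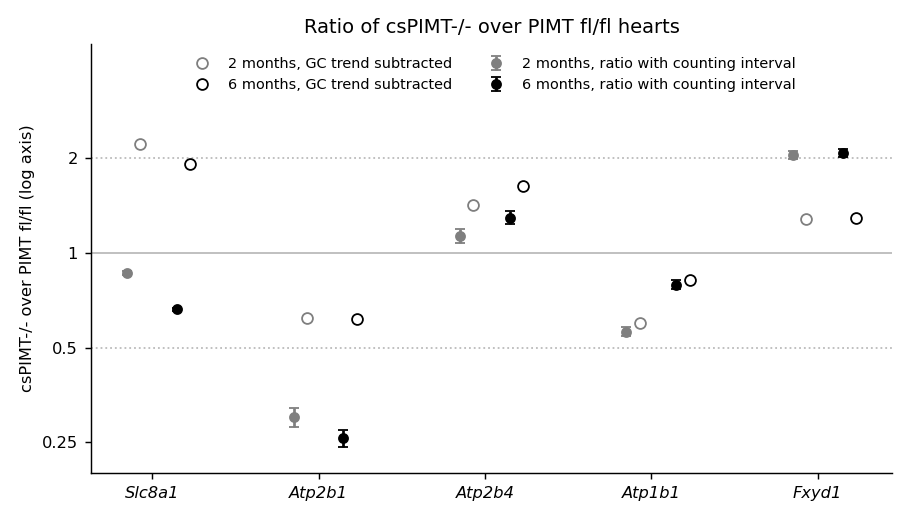
Ratio of csPIMT-/- over PIMT fl/fl (vertical axis, log scale) for each member at 2 months (grey) and 6 months (black). Filled points carry the 95% interval of counting error, open points are the ratios with the trend on GC content subtracted, and dotted lines mark 0.5 and 2. Atp2b1 is the only member below 0.5 before the trend is subtracted and none is after it, and the open points of Slc8a1 are on the other side of 1.

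The wider set held 39 other genes for exchangers, calcium pumps, sodium pump subunits, FXYD proteins, proton and bicarbonate transporters and partners of the pumps. Of these, 34 could be compared at 2 months, with 4 below 0.5 and 7 above 2, beside 23% and 16.4% of all genes. At 6 months 32 could be compared, with 8 below and 6 above, beside 25.7% and 16%. The median ratio of the set was 1.12 and 1.11. In limma 5 of 32 were lower and 2 higher, beside 18% and 12.2% of all genes tested. Of this set the lower ones were 4 partners of the pumps and the bicarbonate transporter *Slc4a7* (-0.83, limma, adjusted p = 0.0433), and the higher ones *Fxyd5* and *Fxyd6*. *Slc4a7* had ratios of 0.513 and 0.583. With the trend on GC content subtracted they were 1.17 and 1.52, so the direction for *Slc4a7* depends on that step. Of the FXYD genes besides *Fxyd1*, 5 of 5 compared were above 2 at 2 months and 3 of 4 at 6 months, beside 16.4% and 16% of all genes. No test of the group was made, and *Fxyd2*, *Fxyd3* and *Fxyd7*, named after their values were seen, had at most 93 reads in a library. *Fxyd6*, a sodium pump regulator best known from brain, had 1954 and 2037 normalized counts in the controls and 4954 and 9470 in csPIMT-/-, a ratio of 2.49 and 4.53 (limma 1.79, adjusted p = 0.0132). *Fxyd5*, which is known to loosen contacts between cells, had 397 and 631 in the controls and 1722 and 2114 in csPIMT-/-, a ratio of 4.25 and 3.27 (limma 1.94, adjusted p = 0.0118). Unlike *Fxyd1*, both kept ratios above 2 with the trend on GC content subtracted (2.87 and 5.15 for *Fxyd6*, 3.74 and 2.72 for *Fxyd5*), though limma then gave an adjusted p of 0.0983 for each. The level of *Fxyd1* over *Fxyd6* per length was 9.52 (9.07 to 9.99) and 10 (9.57 to 10.5) in controls and 7.83 (7.54 to 8.13) and 4.61 (4.48 to 4.73) in csPIMT-/-, so *Fxyd1* remained the more abundant of them. Macrophage markers moved as well, with 4 of 5 above 2 at 2 months, 1 of 5 at 6 months and sums of 9679 and 20833 normalized counts in the controls and 23943 and 32051 in csPIMT-/-, and their part in these ratios was not tested.

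Of the partners of the pumps, 4 of 8 were lower in limma and none was higher, beside 18% and 12.2% of all genes. With the trend on GC content subtracted limma called 0 genes in either direction (1663 lower and 1837 higher at an unadjusted p under 0.05). *Calm2*, a gene for calmodulin, which switches PMCA on, had ratios of 0.365 and 0.324 (limma -1.50, adjusted p = 0.0122). *Calm3*, a calmodulin gene named after its values were seen, had 10144 and 8490 normalized counts in controls and 11221 and 14351 in csPIMT-/-, ratios of 1.08 and 1.65 (limma 0.46, adjusted p = 0.192). Calmodulin genes have near-identical coding sequences, so their reads are uncertain. *Pln*, phospholamban, the inhibitor of the calcium pump of the sarcoplasmic reticulum, had 0.381 and 0.25 (limma -1.65, adjusted p = 0.02). *Pln* also stands among the cardiomyocyte markers. *Ank2*, ankyrin-B, which holds the exchanger and the sodium pump in place and was named after its values were seen, was 0.534 and 0.284 (limma -1.32, adjusted p = 0.0253). With the trend on GC content subtracted *Calm2* had ratios of 0.745 and 0.765 and *Calm3* 0.677 and 1.02. *Pln* then had 1.13 and 0.796, and *Ank2* had 0.589 and 0.304. *Slc9a3*, a sodium-proton exchanger of the gut and kidney, had only 81 to 177 reads and ratios of 2.34 and 2.52 (limma 1.31, adjusted p = 0.0615).

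**Figure D4:**
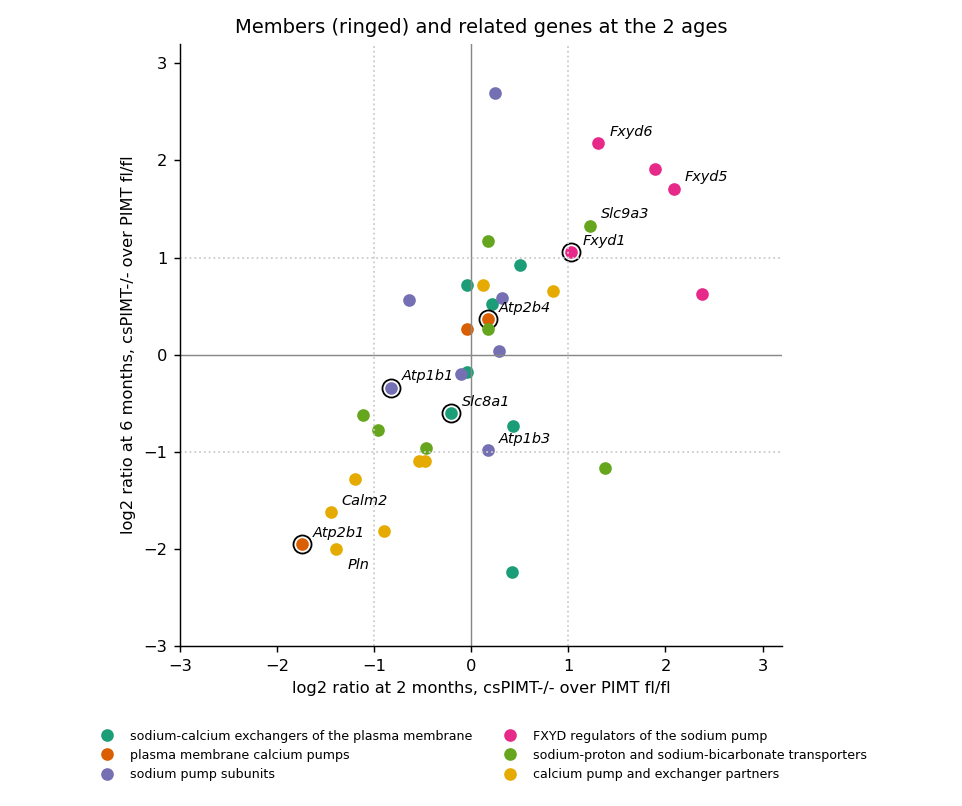
Log2 ratio of csPIMT-/- over PIMT fl/fl at 6 months (vertical axis) against that at 2 months (horizontal axis) for the members (ringed) and the related genes compared at both ages, coloured by list. Solid lines mark no difference and dotted lines 2-fold. The FXYD genes lie in the upper right, and Atp2b1, Pln and Calm2 in the lower left. The ages use different control libraries.

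The genes whose 4 values ran closest to each member were found among 11338 genes, by the distance of log2 values centred on their means. For *Atp2b1* they were *Chd9* (distance 0.0495), *Plekha1* (0.0515) and *Ptges3* (0.0534), with transcripts of 45.1%, 44.8% and 43.2% G and C. *Chd9* had 2645 and 3501 normalized counts in controls and 822 and 894 in csPIMT-/-. For *Fxyd1* they were *Cnpy3* (0.0276), *Nle1* (0.0422) and *Pef1* (0.049), of 57.7%, 59.7% and 55%. For *Slc8a1*, whose transcript is 40.2% G and C, they were *Zfp112* (0.0273), *Gfm2* (0.0527) and *Rpp14* (0.0673), of 50%, 48.3% and 44%, and for *Atp1b1* *Cxcl12* (0.049), *Cit* (0.0545) and *Slx4* (0.0618). Those named for *Atp2b4* were *Rbms2* (0.0296) and *Prr14* (0.037). The likeness is over 4 libraries only.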

How the data were processed

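Poly(A) RNA of 4 pools of 5 hearts was sequenced as directional single-end libraries. Per the labels and methods, the authors used STAR for alignment to mm10, htseq-count (HTSeq 0.6.1p1, submitters' processing notes) on a UCSC annotation for gene counts, and DESeq2. They deposited normalized counts, a signal per gene on the median-of-ratios scale. The sequencing run of each library and the strand setting of the counting are not given in the sources used here. Dividing each library by its smallest value above 0, which is what 1 read is worth (0.865 to 1.23), gave whole reads for 100% of values (tolerance 1e-06).

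Members and gene lists were chosen with earlier results of these data known. Ratios used median-of-ratios size factors, genes with at least 10 reads in 1 library, a pseudocount of 0.5 for log2 values and 95% Clopper-Pearson intervals, which hold counting error only. With 1 library per group no p-value was made for 1 age. Over both ages limma 3.58.1 (R 4.3.3) was fitted to log2(TMM-scaled reads + 1) with genotype, age and a mean trend of the variance, 1 residual and 4.57 prior degrees of freedom, and Benjamini-Hochberg adjustment over 14935 genes. These p-values take the departure from additive effects of genotype and age as the spread. edgeR 4.0.16 and DESeq2 1.42.0 on the recovered reads were alternatives. Fits were checked on simulated data. GC content, lengths and positions came from GENCODE M21 (GRCm38, 89.8% of genes matched by symbol), promoters from RefSeq and primers from the study's supplement. The GC trend was a lowess curve with a span of 0.3. Related genes were named if they were past 2-fold in 1 direction at both ages with 100 reads, or were paralogs of a member with 1000 reads. Some genes that these rules cover are not reported here and remain in the counts.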

Additional observations from a re-analysis of the deposited data

Results flagged for a closer look

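*Atp1b3*, a second β subunit of the sodium pump, had a log2 ratio of csPIMT-/- over control of 0.17 at 2 months and -0.98 at 6 months, opposite directions at the 2 ages. With 1 library per group the difference between the ages was not tested. Per length, *Atp1b1* over *Atp1b3* was 4.78 and 2.83 in the controls of 2 and 6 months and 2.39 and 4.43 in csPIMT-/-. Both genes enter this proportion. At 2 months the ratio of csPIMT-/- over control was 0.561 for *Atp1b1* and 1.12 for *Atp1b3*, so most of that shift lay in *Atp1b1*. At 6 months the ratios were 0.792 and 0.506, and *Atp1b3* was the lower.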

How the results depend on the processing

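With the trend on GC content subtracted, genes below 0.5 were 1571 at 2 months and 1800 at 6 months, members below 0.5 were 0 at both ages, members above 2 were 0 at 6 months, and the 1 member above 2 at 2 months was *Slc8a1* and not *Fxyd1*. In limma that step left 0 genes lower and 0 higher (1663 and 1837 at an unadjusted p under 0.05), 0 members in either direction, and *Slc8a1* reversed to 1.05 (limma, adjusted p = 0.111). Without the mean trend of the variance 0 genes were lower and 0 higher (unadjusted 3387 and 2543), and 0 members in either direction, where edgeR called 2508 lower and 1619 higher and DESeq2 2994 and 2201. At 2 months 0 members were above 2 with the 6-month control, with both controls summed, and with the whole interval past 2-fold. Genes above 2 were 1618 with at least 100 reads and 1607 (2 months) and 1591 (6 months) with the whole interval. Leaving out 1 library in turn (no age term, the lone library assumed to vary like the rest) gave 147 to 2650 genes lower, 182 to 1273 higher, 0 to 1 members lower and 0 to 1 higher. The lowest counts were without the 6-month control (147 lower, 182 higher), where *Atp2b1* was at -1.62 (limma, adjusted p = 0.0519). Without the 2-month control 1090 were lower and 187 higher, and without 6-month csPIMT-/- 957 were higher. The causes were not tested. Of 108 counts of genes and members under the alternatives, 81 stayed within 1.5 times the reported count and 27 did not. Some of the 81 were fixed in advance. Every member passes the filters of 1 and of 100 reads on the ratios, so member counts under those filters could not change. The counts of members were also only 0 or 1. No paired analysis was possible because each group has 1 library and the labels carry no replicate numbers. Depth limits little here, since every member had at least 936 reads in each library, and the missing replicates limit all of it.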
